A study of Mus musculus with 6 samples.

Results

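The 7 CC chemokine genes Ccl2, Ccl3, Ccl4, Ccl5, Ccl7, Ccl17 and Ccl22 were followed in mature dendritic cells (maDC), chosen by symbol out of 23863 genes measured. All 7 had a mean of at least 1 RPKM (reads per kilobase of transcript, scaled to the reads of the library), the filter that kept 10549 genes. The cells were bone marrow-derived dendritic cells (BMDC) of 6-week-old C57BL/6 mice, and the groups were Mettl3KO (Mettl3 fl/fl CD11c-Cre, labelled Mettl3-/-) and Mettl3WT (Mettl3 fl/fl, labelled wildtype), here KO and WT. Mettl3 is the enzyme that places m6A, a methyl mark, on mRNA, and Cre under the CD11c promoter removes early exons in cells that express CD11c. Bone marrow of both genotypes was cultured in GM-CSF at 10 ng/ml together with 1 ng/ml IL-4, CD11c-positive cells were taken with magnetic beads, and LPS at 100 ng/ml matured them over 24 h. Cells of each genotype then received actinomycin D, which blocks transcription, for 0, 3 or 6 h. Poly(A) RNA was sequenced with ERCC spike-in transcripts, with 1 library for each genotype and time and 6 in all. No replicate check exists, and no p-value is given. The libraries of a genotype are taken here to come from 1 culture, which the methods do not state. On that reading the differences below compare 2 cultures.

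CC chemokines are small secreted proteins that draw leukocytes through G protein-coupled receptors. Ccl2 and Ccl7 act through Ccr2 on monocytes, Ccl3, Ccl4 and Ccl5 attract monocytes, macrophages and effector T cells, and Ccl17 and Ccl22 act through Ccr4 on helper and regulatory T cells. Dendritic cells make them after contact with microbial products such as LPS, and Ccl17 and Ccl22 are well-known products of mature dendritic cells. Their mRNAs include examples of transcripts whose life is set by AU-rich elements in the 3' UTR, which proteins such as Zfp36 bind to hasten decay.

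Each gene has 3 exons, and 5 of them lie on chromosome 11 and 2 on chromosome 8 (GENCODE vM21 on GRCm38, the mm10 assembly). Ccl2 (chr11:82035571-82037453, plus strand) lies beside Ccl7 (chr11:82045712-82047525, plus strand). Ccl5 (chr11:83525778-83530518, minus strand), Ccl3 (chr11:83647844-83649355, minus strand) and Ccl4 (chr11:83662584-83664683, plus strand) form a second cluster. Ccl22 (chr8:94745590-94751699, plus strand) lies beside Ccl17 (chr8:94810453-94812036, plus strand). RefSeq starts Ccl4 farther upstream (chr11:83648624-83664683), so that its span overlaps Ccl3 on the other strand, and without strand reads there cannot be assigned to either gene. No stretch of 50 bases in the 7 transcripts was found in a transcript of another gene.

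The 3' UTRs differ in AU-rich sequence, and the sites are shown because these 7 mRNAs also differed in decay (below). The AU-rich pentamer ATTTA (with U for T in RNA) was searched on the mRNA strand with overlapping matches counted, and the longer heptamer TATTTAT, which contains the pentamer, was searched as well. Ccl3 held 5 pentamers in a 3' UTR of 409 bases, Ccl4 2 in 302 bases, Ccl7 2 in 435 bases, Ccl22 2 in 1813 bases and Ccl2 1 in 275 bases, while Ccl5 (199 bases) and Ccl17 (183 bases) held none. Among kept genes whose 3' UTR length was within 20% of that of Ccl3, 42.5% held a pentamer and 0.795% held 5 or more. The share with a pentamer was 37.2% for lengths like Ccl4, 44.5% for Ccl7, 35.9% for Ccl2, 88.3% for Ccl22, 25.1% for Ccl5 and 25% for Ccl17. A heptamer was found in each of Ccl3, Ccl4 and Ccl22, where 11.1%, 8.34% and 36.6% of genes of like 3' UTR length held it. The windows below are 30 bases of GENCODE transcript, 5' to 3', with the heptamer in capitals for Ccl4, Ccl3 and Ccl22 and a pentamer in capitals for Ccl2 and Ccl7.
Ccl4: attatttctatTATTTATgttttagttata
Ccl3: gtatttgtgacTATTTATtctgaaagactt
Ccl22: agctatagttaTATTTATataggaaagagg
Ccl2: aatattaaacttATTTAacttattgatgtt
Ccl7: attaatatttttATTTAattagccatgtac
The sites begin 172 bases after the stop codon in Ccl4, 233 in Ccl3, 944 in Ccl22, 40 in Ccl2 and 177 in Ccl7. GGACT, a form of the m6A consensus RRACH, occurred in 6 of the 7 transcripts, against 91.6% of kept genes of any length. It was not in that of Ccl4, where 54.4% of kept genes of like transcript length held it. For lengths like the others the share was 65.3% (Ccl2), 62.4% (Ccl3), 45.9% (Ccl5), 64.9% (Ccl7), 47.7% (Ccl17) and 91.0% (Ccl22). Other forms of the consensus were not searched. Such matches describe the sequence only.

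Approximate depth, from the value of a single read in 6 to 50 intronless olfactory receptor genes a library, was 12000000 to 15000000 reads per library. Fragment length was ignored, so depth is more likely set too low than too high. Of the markers of the labelled cell type, all 10 dendritic cell genes were kept, among them Ccr7, which stood at 1863 RPKM in KO at 0 h against 1771 RPKM in WT. The 10 genes summed to 9022 (0 h), 6289 (3 h) and 7695 (6 h) RPKM in KO, against 9601, 7076 and 8894 RPKM in WT. The 12 neutrophil markers measured, none of them at 0 throughout, summed to 14567 (0 h), 10718 (3 h) and 7097 (6 h) RPKM in KO, against 7591, 8328 and 7037 RPKM in WT. The 11 macrophage markers summed to 1098, 1734 and 1917 RPKM in KO, against 1029, 1620 and 1388 RPKM in WT, with Cd163 at 0 in all 6 libraries. T and NK cell markers summed to between 6.73 and 10.4 RPKM in KO and 5.27 and 11.6 RPKM in WT, mast cell and basophil markers to between 7.64 and 23.6 RPKM in KO and 7.07 and 27.1 RPKM in WT, and B cell markers to under 1 RPKM in every library. In such bulk RNA, fewer cells of a type and less RNA per cell cannot be told apart.

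The levels of the 7 mRNAs spanned about 4 orders of magnitude. Ccl5 was measured at 28649 (0 h), 32731 (3 h) and 48272 (6 h) RPKM in KO, against 23084, 25927 and 47231 RPKM in WT. That placed Ccl5 first among all genes at 0 and 6 h and in rank 2 at 3 h in both genotypes, and it alone took 4.12, 5.15 and 6.71% of summed RPKM in KO, against 3.71, 4.49 and 6.91% in WT. Ccl22 was measured at 3879, 3124 and 4541 RPKM in KO, against 4409, 3619 and 7109.8 RPKM in WT. It held ranks 14, 18 and 16 in KO, against 9, 13 and 8 in WT. Together the 7 genes held 4.74, 5.70 and 7.42% of summed RPKM in KO, against 4.48, 5.19 and 8.05% in WT.

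**Figure D1:**
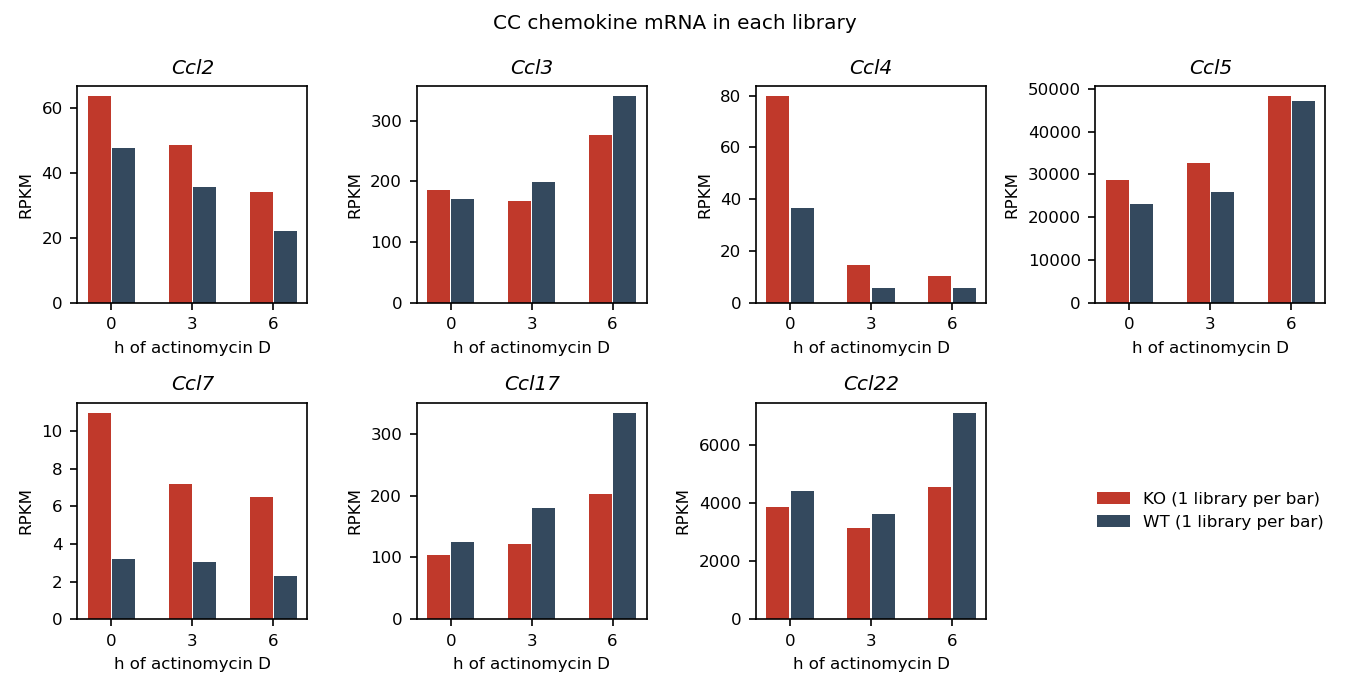
RPKM (vertical axes, each from 0 and each with its own range) of the 7 genes at 0, 3 and 6 h of actinomycin D, with KO left of WT at each time and 1 library per bar. The KO bar stands above the WT bar at every time for Ccl2, Ccl4, Ccl5 and Ccl7 and below it at every time for Ccl17 and Ccl22.

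The other 5 mRNAs lay well below these. Ccl3 was at 186, 168 and 277 RPKM in KO, against 171, 199 and 341 RPKM in WT. Ccl17 was at 104, 121 and 203 RPKM in KO, against 125, 180.3 and 334 RPKM in WT. Thus Ccl17 was lower in KO at each time, while Ccl3 was lower in KO at 3 and 6 h only. Ccl2 was at 63.5, 48.4 and 34.1 RPKM in KO, against 47.6, 35.6 and 21.9 RPKM in WT. Ccl4 was at 79.8, 14.4 and 10.2 RPKM in KO, against 36.7, 5.76 and 5.57 RPKM in WT. Ccl7 was at 11, 7.20 and 6.52 RPKM in KO, against 3.18, 3.05 and 2.3 RPKM in WT. All 3 were higher in KO at each time, and for Ccl7 the lowest KO value lay above the highest WT value. The order Ccl5, Ccl22, Ccl3, Ccl17, Ccl2, Ccl4, Ccl7 held in 5 of the 6 libraries, and in KO at 0 h Ccl4 stood above Ccl2. Ccl3 and Ccl17 came close in WT at 6 h, where their 95% Poisson intervals (329 to 353 and 320 to 349 RPKM) overlapped. These intervals rest on the approximate depth and cover counting error only. Fragment length was ignored for the members too. For short transcripts, such as Ccl17 (514 bases) and Ccl5 (532 bases), reads may therefore be set too high and the intervals too narrow.

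Whether loss of Mettl3 went with another level of these mRNAs was asked with log2 ratios of KO to WT on RPKM plus 0.1, each library centred on its median gene. A gene was counted where the ratio passed 1.5-fold in 1 direction at all 3 times. Ccl7 and Ccl4 were counted as higher in KO, 2 of 7 genes against 1.61% of all kept genes, and 0 of 7 as lower, against 0.938% of all genes. The median over the 7 genes was 0.17, against -0.02 over all kept genes (log2, mean of the 3 times). With amounts scaled to the ERCC transcripts the same 2 genes were counted as higher (2.42% of all genes) and 0 as lower (0.114%).

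Of the Ccr2 ligands, Ccl7, a chemoattractant of monocytes, was higher in KO by 1.73 at 0 h, 1.18 at 3 h and 1.34 at 6 h (log2 relative to the median gene; mean 1.42 ± 0.28, SD over 3 times of the same cultures), a mean fold of 2.67 at percentile 99.4 of all kept genes. It rests on few reads, about 120.4, 86.7 and 62.6 in KO against 35.3, 34.8 and 22.3 in WT. The Poisson intervals at 0 h were 9.11 to 13.1 RPKM in KO and 2.22 to 4.41 RPKM in WT, and at 6 h 5.0 to 8.34 RPKM in KO and 1.45 to 3.47 RPKM in WT. They did not overlap at either time. Its neighbour Ccl2, the main monocyte attractant of the group, had smaller log2 ratios of 0.39, 0.41 and 0.51 (mean 0.44 ± 0.07, percentile 92.7) and was not counted. Within a library, where no scaling enters, Ccl2 exceeded Ccl7 by 5.78, 6.72 and 5.23 times in KO, against 15.0, 11.7 and 9.54 times in WT.

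Of Ccl3, Ccl4 and Ccl5, Ccl4 had log2 ratios of 1.09, 1.28 and 0.73 (mean 1.03 ± 0.28), a mean fold of 2.05 at percentile 98.6. At 6 h its Poisson intervals were 8.06 to 12.6 RPKM in KO and 4.06 to 7.47 RPKM in WT, from about 80.4 reads in KO and 44.4 in WT. Ccl3, its close relative in the same cluster, did not go with it. Ccl3 had log2 ratios of 0.10, -0.28 and -0.42 (mean -0.20 ± 0.27, percentile 21.7), and Ccl5 of 0.29, 0.31 and -0.09 (mean 0.17 ± 0.22, percentile 76.4). Ccl3 exceeded Ccl4 by 2.34, 11.7 and 27.3 times in KO, against 4.65, 34.6 and 61.1 times in WT.

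**Figure D2:**
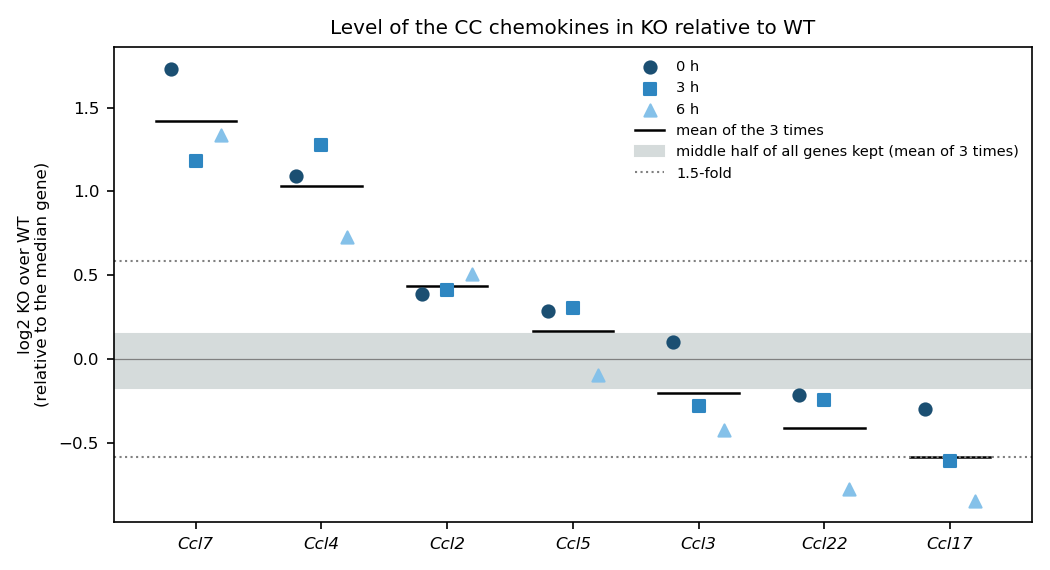
Log2 ratio of KO to WT relative to the median gene (vertical axis) of each gene at 0, 3 and 6 h (symbols), with the mean of the 3 times as a black line, the range from the first to the third quartile of all kept genes in grey and 1.5-fold dotted. All 3 symbols lie above the upper dotted line for Ccl7 and Ccl4, and for Ccl17 and Ccl22 the 6 h symbol lies below the lower one, while on the spike-in scale both of these genes were above WT at 0 and 6 h.

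The Ccr4 ligands lay on the other side. Ccl17 had log2 ratios of -0.30, -0.61 and -0.84 (mean -0.58 ± 0.27, percentile 2.6) and Ccl22 of -0.21, -0.24 and -0.77 (mean -0.41 ± 0.31, percentile 6.28). Neither was counted, since neither passed 1.5-fold at all 3 times. Both ratios were below 0 at each time on this scale. Within a library Ccl22 exceeded Ccl17 by 37.3, 25.8 and 22.4 times in KO, against 35.2, 20.1 and 21.3 times in WT. Ccl5 exceeded Ccl22 by 7.39, 10.5 and 10.6 times in KO, against 5.24, 7.16 and 6.64 times in WT.

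At single times the counts past 1.5-fold grew with time on the lower side. At 0 h Ccl4 and Ccl7 were higher (4.39% of all genes) and 0 members lower (2.94%). At 3 h the same 2 genes were higher (5.65%) and Ccl17 lower (4.88%). At 6 h they were again higher (7.87%), and Ccl17 and Ccl22 lower (5.36%). On the spike-in scale the median gene itself had log2 ratios of 0.36, -0.22 and 1.11 at 0, 3 and 6 h. On that scale Ccl17 had log2 ratios of 0.07, -0.80 and 0.30 and Ccl22 of 0.16, -0.44 and 0.38, so both were above WT at 0 and 6 h. Ccl3 likewise had 0.47, -0.47 and 0.73 there. Ccl4 (1.46, 1.08 and 1.88) and Ccl7 (2.10, 0.99 and 2.49) stayed above 1.5-fold at every time.

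Marker genes of dendritic cells and of other cells that the cultures could hold are given beside these levels. Of all kept genes, 1.61% were counted as higher in KO and 0.938% as lower. Among kept neutrophil markers, 3 of 10 were counted as higher in KO (Ltf, Ngp and Cxcr2) and 1 as lower (Mmp8). Their median log2 ratio fell with time, from 1.45 at 0 h to 0.98 at 3 h and -0.002 at 6 h. At 0 h S100a8 was at 4991 RPKM in KO against 2238 RPKM in WT and S100a9 at 4036 against 1591. Only Mmp8 was lower in KO at that time, at 34.8 RPKM against 52.2 RPKM in WT. At 6 h, where most of the summed neutrophil level came from Lcn2 and S100a8, Ltf was at 12.0 RPKM in KO against 4.69 RPKM in WT and Ngp at 90.6 RPKM in KO against 39.3 RPKM in WT. S100a9 (1052 RPKM in KO against 934 RPKM in WT) and Camp (47.1 against 34.4) were also higher then. S100a8 (1233 RPKM in KO against 1539 RPKM in WT), Mmp8 (15.0 against 38.2) and Mmp9 (90.1 against 115) were lower in KO. Among kept macrophage markers, 1 of 7 was counted as higher, the Fc receptor Fcgr1, at 58.8, 72.3 and 82.7 RPKM in KO against 18.5, 20.1 and 15.1 RPKM in WT. Among dendritic cell markers, 1 of 10 was lower, Ciita, the activator of MHC class II genes. The median of their mean log2 ratios was -0.26, and 0 of 10 had ratios above 0 at all 3 times. For neutrophil markers that median was 0.89 and 5 of 10 had ratios above 0 at all 3 times. For macrophage markers the values were 0.11 and 4 of 7. The share of all kept genes above 0 at all 3 times was not counted. The highest and lowest mean log2 ratios were 0.04 (Fscn1) and -0.75 (Ciita) among dendritic cell markers, 1.82 (Ltf) and -1.14 (Mmp8) among neutrophil markers, 1.92 (Fcgr1) and -0.30 (Adgre1) among macrophage markers, 0.29 (Cd3e) and -0.95 (Nkg7) among T and NK cell markers, and 0.01 (Mcpt8) and -0.76 (Cpa3) among mast cell and basophil markers. Their part in the chemokine ratios was not tested.

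The family outside the 7 genes was mostly low. Of 15 other CC chemokines, 6 were kept, 9 had a mean below 1 RPKM and 4 of these (Ccl11, Ccl21a, Ccl21b and Ccl26) were listed at 0 in all 6 libraries. Of the 6 kept, 3 were counted as higher in KO (Ccl6, Ccl9 and Ccl12), against 1.61% of all kept genes, and 0 as lower, against 0.938%. Ccl12, a Ccr2 ligand of mice, was at 5.40, 7.73 and 11 RPKM in KO, against 0.351, 0.971 and 1.84 RPKM in WT. All its KO values lay above all its WT values, with log2 ratios of 3.58, 2.84 and 2.39. Its reads were not estimated, and with WT values below 1 RPKM at 0 and 3 h the size of these ratios is uncertain. The Ccr1 ligands of mice Ccl9 (55.6, 117 and 197 RPKM in KO against 21.7, 53.8 and 74.3 RPKM in WT) and Ccl6 (59.0, 54.9 and 67.8 RPKM in KO against 26.1, 33.5 and 40.5 RPKM in WT) were higher at each time. Ccl24, a ligand of Ccr3, had a mean log2 ratio of -0.58 ± 0.30, Ccl25, a ligand of Ccr9, of -0.06 ± 0.20, and Ccl27a, a ligand of Ccr10, of -0.68 ± 0.79, at levels of 0.297 to 4.67 RPKM.

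Of the 13 receptor genes reported here, 4 were kept. Of these, Ccr2 was counted as higher in KO (1.61% of all kept genes) and 0 as lower (0.938%). Ccr2, the receptor of Ccl2 and Ccl7, was at 3.35, 3.32 and 2.74 RPKM in KO, against 1.28, 0.954 and 0.572 RPKM in WT. Ccr1, a receptor of Ccl3 and Ccl5, had log2 ratios of 0.50, 0.90 and 1.72 and missed the count at 0 h. Ccr4, the receptor of Ccl17 and Ccl22, stayed below 1 RPKM in every library. Ccr7, which guides mature dendritic cells to lymph nodes, had a mean log2 ratio of -0.01 ± 0.14, and the chemerin-binding Ccrl2 of 0.20 ± 0.19.

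**Figure D3:**
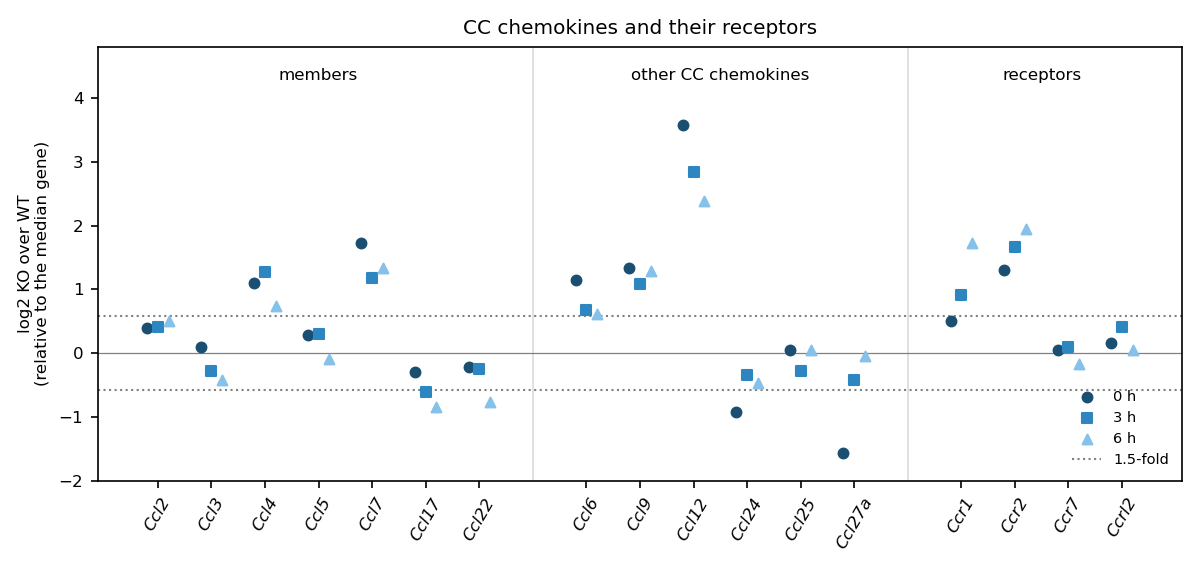
Log2 ratio of KO to WT relative to the median gene (vertical axis) at 0, 3 and 6 h (symbols) for the 7 genes, the 6 other CC chemokines kept and the 4 receptors kept, with 1.5-fold dotted. Ccl12 lies highest at 3.58, 2.84 and 2.39, from WT values of only 0.351, 0.971 and 1.84 RPKM. All 3 symbols of Ccl4, Ccl7, Ccl6, Ccl9 and Ccr2 lie above the upper dotted line.

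How long each mRNA lasted was read from the share of the 0 h amount left on the spike-in scale, where ERCC RNA had been added in proportion to total RNA. The median gene was at 12.7% at 3 h and 15.1% at 6 h in KO, against 19.1% and 8.80% in WT. Ccl4 was by far the least lasting of the 7, with 4.41% left at 3 h and 4.00% at 6 h in KO, against 5.71% and 2.99% in WT. Ccl17 lasted best, with 28.2% and 60.9% left in KO, against 51.6% and 51.8% in WT. Ccl5 was at 27.7% and 52.5% in KO, against 40.3% and 39.7% in WT. Ccl3 was at 21.9% and 46.4% in KO, against 41.9% and 38.8% in WT. In each of these 4 the KO culture held less than WT at 3 h and more at 6 h.

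The same order of genotypes held for the rest. Ccl22 was at 19.5% and 36.5% in KO, against 29.4% and 31.3% in WT. Ccl2 was at 18.5% and 16.8% in KO, against 26.8% and 8.96% in WT, and Ccl7 at 16.0% and 18.6% in KO, against 34.4% and 14.2% in WT. The median gene crossed in the same way, and from 3 to 6 h 77.8% of all kept genes rose on this scale in KO, against 0.967% in WT, at a time when transcription was blocked.

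**Figure D4:**
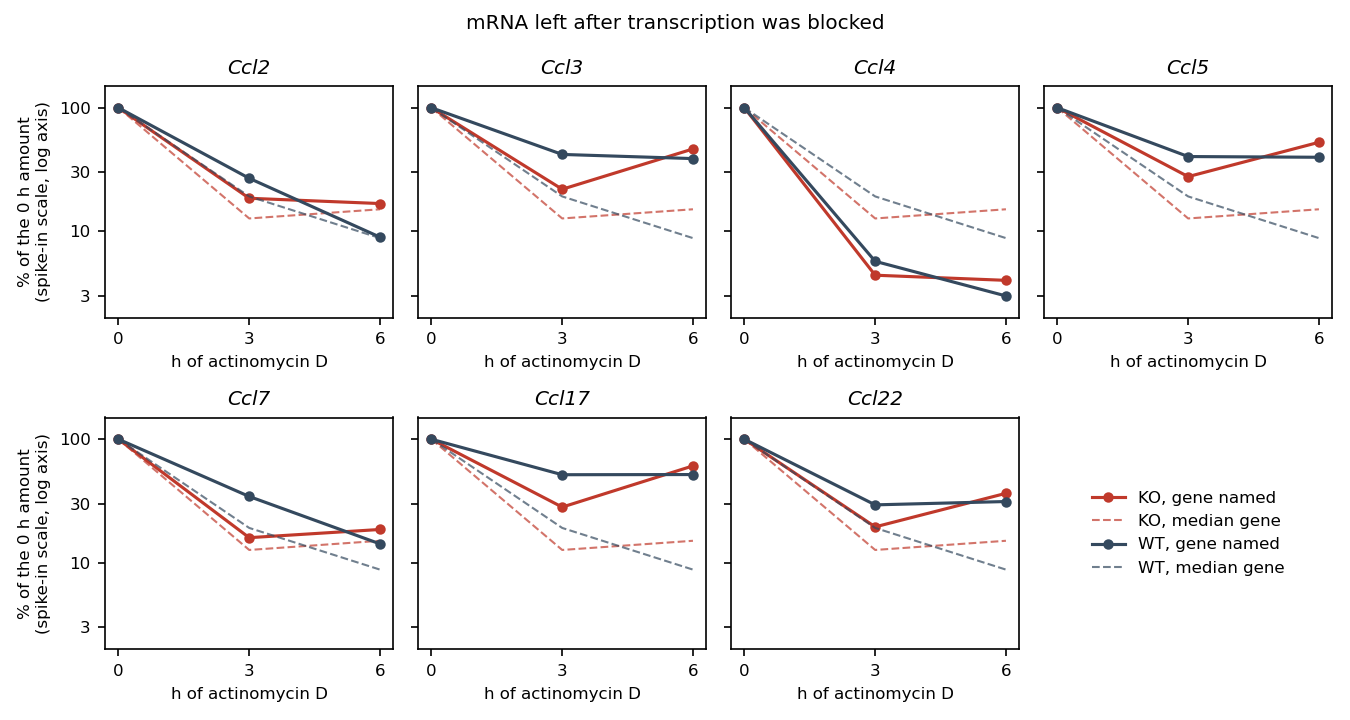
Percent of the 0 h amount (vertical log axis, spike-in scale) at 0, 3 and 6 h of actinomycin D for each gene (solid) and for the median gene (dashed), in KO (red) and WT (dark blue). Ccl4 runs below both dashed lines, at 4.00% in KO and 2.99% in WT at 6 h, and in all 7 genes the KO line lies below the WT line at 3 h and above it at 6 h.

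Half-lives were 2 divided by the sum of the decay rates from 0 to 3 h and from 0 to 6 h (log2 units per h). The median gene had 1.38 h in KO and 1.45 h in WT, and 6 of the 7 chemokines lay above it in each genotype. Ccl17 had 2.75 h in KO and 4.20 h in WT, at percentiles 96.4 and 99.0 of all kept genes. Ccl3 had 2.18 h in KO and 3.09 h in WT, and Ccl5 2.59 h in KO and 3.03 h in WT. Ccl22 (1.95 h in KO and 2.31 h in WT) and Ccl7 (1.55 h in KO and 2.04 h in WT) followed. Ccl2 had 1.61 h in KO and 1.65 h in WT. Ccl4, at 0.879 h in KO and 0.901 h in WT, was at percentiles 2.25 and 2.55. The order of the 7 was alike in both genotypes except that Ccl3 stood below Ccl5 and Ccl7 below Ccl2 in KO. Ccl3, with 5 pentamers, thus had a long half-life and Ccl4, with 2, the shortest, though each holds a heptamer shown above. Ccl5 and Ccl17, without either motif, lay with Ccl3 among the 3 longest-lived in both genotypes. With 7 genes this is a description only.

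**Figure D5:**
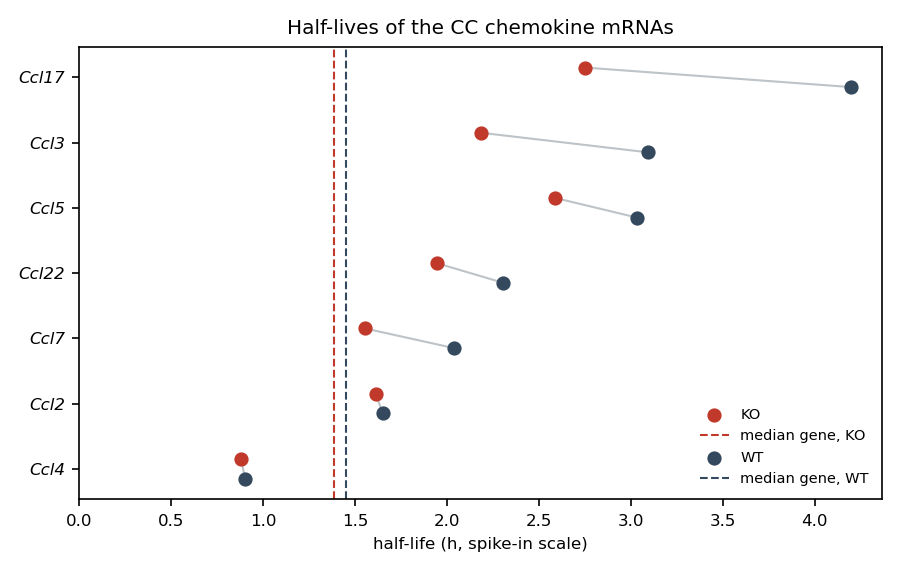
Half-life in h from the averaged rates (horizontal axis, spike-in scale) of each gene in KO (red, upper point) and WT (dark blue, lower point). The median gene of each genotype is dashed. Ccl4 lies left of both dashed lines and the other 6 genes right of them, with Ccl17 farthest right at 2.75 h in KO and 4.20 h in WT.

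No member was counted as differing in decay. To be counted, a gene needed half-lives at least 1.5-fold apart with the KO rates to 3 h and to 6 h on one side of the WT rates, which 0 of 7 met as slower in KO (0.588% of all genes) and 0 of 7 as faster (0.787%). With the rates of KO shifted so that the median gene decayed alike in both genotypes, 0 of 7 were again counted as slower (1.01%) and 0 as faster (0.938%). Ccl17 came nearest, with a half-life ratio of KO to WT of 0.654. Its rate to 3 h was higher in KO by 0.29 per h and its rate to 6 h lower by 0.039 per h, so the directions differed. All 7 members and the median gene crossed in this way, so on the spike-in scale the rule could count none of the members. Relative to the median gene both rates of Ccl17 were higher in KO, by 0.093 and 0.090 per h, and only the 1.5-fold limit was missed. Ratios of the other 6 lay between 0.706 for Ccl3 and 0.977 for Ccl2. All 7 were below 1, and the median over the 7 was 1.95 h in KO and 2.31 h in WT. The median gene was also shorter in KO (1.38 h against 1.45 h in WT), and the share of all kept genes below 1 was not counted. Relative to the median gene the ratio was 0.722 for Ccl17, 0.763 for Ccl3 and 0.806 for Ccl7, and between 0.904 and 1.03 for the rest. Without the 6 h libraries Ccl3, Ccl7 and Ccl17 were counted as faster in KO, beside 12.6% of all genes. From 3 to 6 h alone Ccl2, Ccl3, Ccl4 and Ccl7 were counted as slower, beside 97.8% of all genes. Ccl5, Ccl17 and Ccl22 could not be counted there, since their rates in both genotypes lay under 0.02 per h and were set to it. Without the 3 h libraries all 7 half-life ratios were above 1, with medians over the 7 genes of 4.13 h in KO and 3.58 h in WT. The median gene moved the same way, with 2.20 h in KO against 1.71 h in WT, and 14.8% of all genes and 0 of the 7 were counted as slower.

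The likeness of the patterns over the 6 libraries was taken as the root mean square difference of log2 values relative to the median gene, each gene centred on its own mean. Ccl3 was close to Ccl22 (0.207) and to Ccl5 (0.209), and Ccl17 to Ccl3 (0.261). Ccl4 was far from every other member, nearest to Ccl2 at 1.00, and Ccl7 was nearest to Ccl2 at 0.538. Among other genes of at least 5 RPKM, Ccl7 was most like Slfn4 (0.065), which was at 154, 96.4 and 99.3 RPKM in KO against 48.1, 42.5 and 32.7 RPKM in WT, then 1600014C10Rik and Chil1. Ccl4 was most like Gm12250 (0.195), Rpp25l and the LPS-induced transcription factor Atf3. Ccl2 was most like Mcemp1, Rab3d and Slc7a7, Ccl3 like Agrn, Srgn and Gm5148, and Ccl5 like Rpl34-ps1, Rps27rt and Gm15772. Ccl17 was most like 2010001A14Rik, the MHC class II gene H2-Eb1 and Mndal, and Ccl22 like Neat1, Lenep and Mir155hg. Such likeness is over 6 libraries that share 2 cultures.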

How the data were processed

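The authors deposited RPKM for 23863 genes and 92 ERCC transcripts in every library. To each RPKM they had added 1 and applied a factor of the library, which is the lowest value in its column, so RPKM was recovered by dividing by that value and subtracting 1. The submitters' processing notes name bcl2fastq, TopHat2 2.0.14, Cuffnorm and mm10, and give no strand setting. The deposited table also holds 2 columns of the authors' own mRNA lifetimes, which were not used. Symbols held as dates (27 gene rows) were kept as genes without a name.

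Groups came from the sample labels, which mark every KO library D2 and every WT library D3 with no meaning given. The methods describe more than 1 littermate pair of KO and WT mice for these measurements, and what is taken to be 1 culture of each genotype is analysed here. Levels were log2 of RPKM plus 0.1, centred on the median of genes that averaged 1 RPKM or more. The pseudocount understates the ratios of low genes. Amounts were scaled by the median log2 ratio of 75 ERCC transcripts above 0 in all 6 libraries, giving factors of 1.27, 0.307 and 0.395 for KO at 0, 3 and 6 h and 1, 0.358 and 0.194 for WT. Decay rates under 0.02 per h were set to 0.02. Other scalings, pseudocounts, filters, folds and sets of times were tried as alternatives. Functions were tested on simulated data. Python 3 with numpy and pandas was used. ERCC RNA made up 7.89, 24.1 and 17.5% of summed RPKM in KO and 10.8, 22.9 and 30.3% in WT.

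Members and gene lists were chosen with earlier results of these data known. Named in the text were the 7 members, all kept genes of the other CC chemokine and receptor lists, of the further lists the genes counted (up to 4) and the highest and lowest, and for each member the 3 genes of at least 5 RPKM most like it. One gene of the receptor list is not reported here. Other genes named were chosen after their values were seen. Sequences and coordinates are from GENCODE vM21, with 1 transcript per gene (the principal one, then the longest), and the span of Ccl4 also from RefSeq. Intervals are exact Poisson intervals on approximate reads.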

Additional observations from a re-analysis of the deposited data

Results flagged for a closer look

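On the spike-in scale 3 of the 7 genes ran in opposite directions in the 2 genotypes from 3 to 6 h. The log2 change was 1.08 in KO and -0.11 in WT for Ccl3, 0.92 in KO and -0.019 in WT for Ccl5, and 0.22 in KO and -1.27 in WT for Ccl7. These differences were not tested, and 77.0% of all kept genes likewise rose in KO and fell in WT over these hours. Relative to the median gene, the KO to WT ratio took both signs over the 3 times for 2 genes, at log2 0.10, -0.28 and -0.42 for Ccl3 and 0.29, 0.31 and -0.093 for Ccl5 at 0, 3 and 6 h. Those differences between times were not tested either.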

How the results depend on the processing

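No paired analysis was possible because each genotype and time has 1 library. The count of Ccl4 and Ccl7 as higher in KO, and of 0 members as lower, held under all scalings, pseudocounts, filters and left-out times tried (one centring, on genes of at least 50 RPKM, was added after seeing the data), except that with 2-fold in place of 1.5-fold only 1 member, Ccl7, was counted. Of 91 values of single members under these alternatives, 12, all of members counted in neither direction, moved by more than the SD over the 3 times and stayed uncounted, and 1, Ccl4 at 2-fold, lost its count. On the spike-in scale the mean log2 ratio became 0.24 for Ccl3 and 0.03 for Ccl22, which is above 0.

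Decay counts depended on the times and the scaling. They stayed at 0 relative to the median gene, with both other pseudocounts, with the values as deposited, with a log-linear line, without the 3 h libraries, and with ERCC transcripts of at least 10 RPKM (added after seeing the data), although 14.8% of all genes were counted as slower with the line and without the 3 h libraries, against 0.588% with all times. The 0 members counted as faster in KO became 3 without the 6 h libraries (Ccl3, Ccl7 and Ccl17, with 12.6% of all genes) and 2 with no scaling (Ccl3 and Ccl7, with 6.82%). The 0 counted as slower became 4 from 3 to 6 h alone (Ccl2, Ccl3, Ccl4 and Ccl7, with 97.8% of all genes), where the floor on rates barred Ccl5, Ccl17 and Ccl22. The median half-life of the 7 genes was 4.13 h in KO and 3.58 h in WT when 3 h was left out, and the same with a log-linear line, which for evenly spaced times uses the end points only. It was 1.27 h in KO and 1.95 h in WT when 6 h was left out, and 16.1 h in KO and 21.1 h in WT with no scaling, where the floor on rates limits half-lives to 50 h. In each of these settings 6 of 7 members lay above the median gene in both genotypes. The median share left at 3 and 6 h was 80.5% and 117% in KO and 96.0% and 161% in WT with no scaling, and 171% and 272% in KO and 204% and 401% in WT relative to the median gene. The causes were not tested. Depth limits Ccl7 most, with about 22.3 reads in WT at 6 h.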

Other observations

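Genes that act on the CC chemokines were read from lists of transcription factors and of proteins that set mRNA stability. All 16 transcription factors were kept. At the level of mRNA 0 were counted as higher in KO (1.61% of all kept genes) and 0 as lower (0.938%). With 16 genes, a count of 0 lies near these shares. The interferon regulator Irf7 had the highest mean log2 ratio, 0.63 ± 0.15, at 662, 972 and 1301 RPKM in KO against 376, 622 and 850.2 RPKM in WT, and the NF-kB subunit Nfkb2 the lowest, -0.08 ± 0.12. Stat6, through which IL-4 acts on Ccl17, had 0.04 ± 0.03. Of 10 regulators of mRNA stability, 0 were counted in either direction, again near the shares over all kept genes. Zfp36 was highest at 0.29 ± 0.14 and Tia1 lowest at -0.37 ± 0.12. Zfp36 mRNA itself had a half-life of 0.685 h in KO and 0.713 h in WT.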
